A study of Mus musculus with 32 samples.

Results

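The genes of arginine vasopressin (Avp), oxytocin (Oxt), vasoactive intestinal peptide (Vip) and the VIP receptor VPAC2 (Vipr2) were followed across cells dissociated from the median eminence (ME) of the mouse. They are 4 of the 27998 genes in the count matrix. They were chosen by symbol and by no cut-off on their values, but with earlier results of these data known. All 4 were found in the matrix. The matrix holds 5982 cells and 29288898 unique molecular identifiers (UMIs, each standing for 1 captured RNA molecule), with 1533 to 25054 UMIs per cell and a median of 3837. The cells came from C57B/L6 mice of postnatal day 40 to 47, killed at zeitgeber hour 4 (ZT4), of which 5 were fasted overnight for 16 h and 5 were fasted in the same way and then given normal chow for 1 h. The methods name male mice for the study as a whole unless noted otherwise, and the sex of these mice is not given separately. The MEs of each group of 5 were pooled, sorted as DAPI-negative, DraQ5-positive cells and split into 2 libraries, so that the 32 sample records stand for 4 libraries.

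Each cell barcode carries a number from 1 to 4, and nothing in the labels ties these numbers to a library or a feeding state. The data were therefore treated as 1 sample. No fasted and refed cells were compared, no test was run, and every interval given is an exact 95% interval (Poisson for a level in counts per 1000000 UMIs, CPM; Clopper-Pearson for a share of cells) that covers counting error only. The 4 numbers held 1359 to 1642 cells, and 21 of the 5961 barcode sequences occurred under more than 1 number.

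The ME is the neurohaemal zone at the floor of the third ventricle, where hypothalamic axons release hormones into the pituitary portal vessels and where the axons of magnocellular vasopressin and oxytocin neurons pass on their way to the posterior pituitary. The cell bodies of those neurons lie in the paraventricular and supraoptic nuclei. A separate population of vasopressin neurons, and the VIP neurons of the circadian clock, lie in the suprachiasmatic nucleus (SCN), rostral to the ME, where VIP released by 1 set of GABA neurons acts through VPAC2 on others. Vasopressin and oxytocin are cleaved from precursors that also yield a neurophysin, which carries the peptide in its granules, whereas VIP belongs to the secretin and glucagon family together with the pituitary adenylate cyclase-activating peptide PACAP (Adcyap1).

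Avp (ENSMUSG00000037727) lies on the minus strand of chromosome 2 at 130580620 to 130582554 (GRCm38), and Oxt (ENSMUSG00000027301) on the plus strand at 130576173 to 130577054. The pair is convergent, with 3565 bases between the ends. Vip (ENSMUSG00000019772) lies at 5639218 to 5647617 on chromosome 10 and Vipr2 (ENSMUSG00000011171) at 116077726 to 116146261 on chromosome 12, both on the plus strand. All 4 are protein-coding. Avp and Oxt are paralogs, and their annotated transcripts of 577 and 537 bases, each of 3 exons, share an exact run of 127 bases of coding sequence, which starts in exon 1 and ends in exon 2 of both genes and encodes part of the neurophysin. It is shown because a read that falls inside it could have come from either gene:
Avp and Oxt, chr2:130581133-130582411 on the minus strand with the intron left out: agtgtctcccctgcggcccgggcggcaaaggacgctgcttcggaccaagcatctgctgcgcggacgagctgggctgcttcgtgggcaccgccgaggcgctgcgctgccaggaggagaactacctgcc
Of the 502 windows of 76 bases (the length of the cDNA read) in the Avp transcript, 52 (10.4%) also occurred in that of Oxt. The run ends 307 bases before the 3′ end of the Avp transcript and 255 bases before that of Oxt, and none of the 225 windows in the last 300 bases of Avp was shared. The libraries were primed at the 3′ end of the RNA.

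The 250 bases before the annotated starts of Avp and Vip (RefSeq, GRCm38.p6) are shown because these were the 2 peptide genes with a high level in single neurons. Capitals mark the E-box CACGTG, the sequence bound by clock transcription factors, and TGACGTC, a part of the cAMP response element, both searched on both strands:
Avp, chr2:130582589-130582838, minus strand: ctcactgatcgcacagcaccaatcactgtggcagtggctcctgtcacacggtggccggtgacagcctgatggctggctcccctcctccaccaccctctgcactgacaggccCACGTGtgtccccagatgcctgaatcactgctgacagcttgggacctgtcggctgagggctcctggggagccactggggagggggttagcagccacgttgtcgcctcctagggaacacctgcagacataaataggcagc
Vip, chr10:5638968-5639217, plus strand: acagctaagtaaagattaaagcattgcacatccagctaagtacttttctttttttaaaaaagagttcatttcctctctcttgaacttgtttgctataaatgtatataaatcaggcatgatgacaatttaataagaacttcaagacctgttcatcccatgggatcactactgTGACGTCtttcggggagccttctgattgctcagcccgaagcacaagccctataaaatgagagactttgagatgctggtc
The E-box began 139 bases before the start of Avp, and 6.02% of the 32851 promoter windows of this length held one. TGACGTC began 79 bases before the start of Vip, and it or its reverse complement was present in 2.78% of windows. The windows of Oxt and Vipr2 held neither motif. Such a match describes letters in a window and is not a measured binding site.

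Avp and Vip were high in neuron-like cells, Vipr2 was low and spread over several cell types, and Oxt was close to absent. Cells were clustered, and each cluster was named from marker lists as X-like. The 507 neuron-like cells (median 13424 UMIs per cell) held 90.9% of the 12991 Avp UMIs, 95.9% of the 1496 Vip UMIs, 68.8% of the 109 Vipr2 UMIs and 27.8% of the 72 Oxt UMIs. The background was read in the 5323 cells (median 3617 UMIs) of the other named types, called non-neuronal here. Pars tuberalis-like cells, an endocrine type of the pituitary stalk, 60 cells of unnamed clusters and 3 cells with over 10% haemoglobin UMIs were left out of it. In neuron-like cells the Avp level was 1790 CPM (1758 to 1823), against 52.1 CPM (49.1 to 55.2) in non-neuronal cells. Vip was at 217 CPM (206 to 229) against 2.69 CPM (2.05 to 3.47), and Vipr2 at 11.4 CPM (8.94 to 14.2) against 1.55 CPM (1.07 to 2.17). Oxt was at 3.03 CPM (1.85 to 4.68) in neuron-like cells and at 2.33 CPM (1.73 to 3.06) in non-neuronal cells, so that these intervals overlapped. UMI counts of 3′ tags do not grow with transcript length, so levels of the 4 genes are set side by side on the CPM scale as counts of captured molecules.

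**Figure D1:**
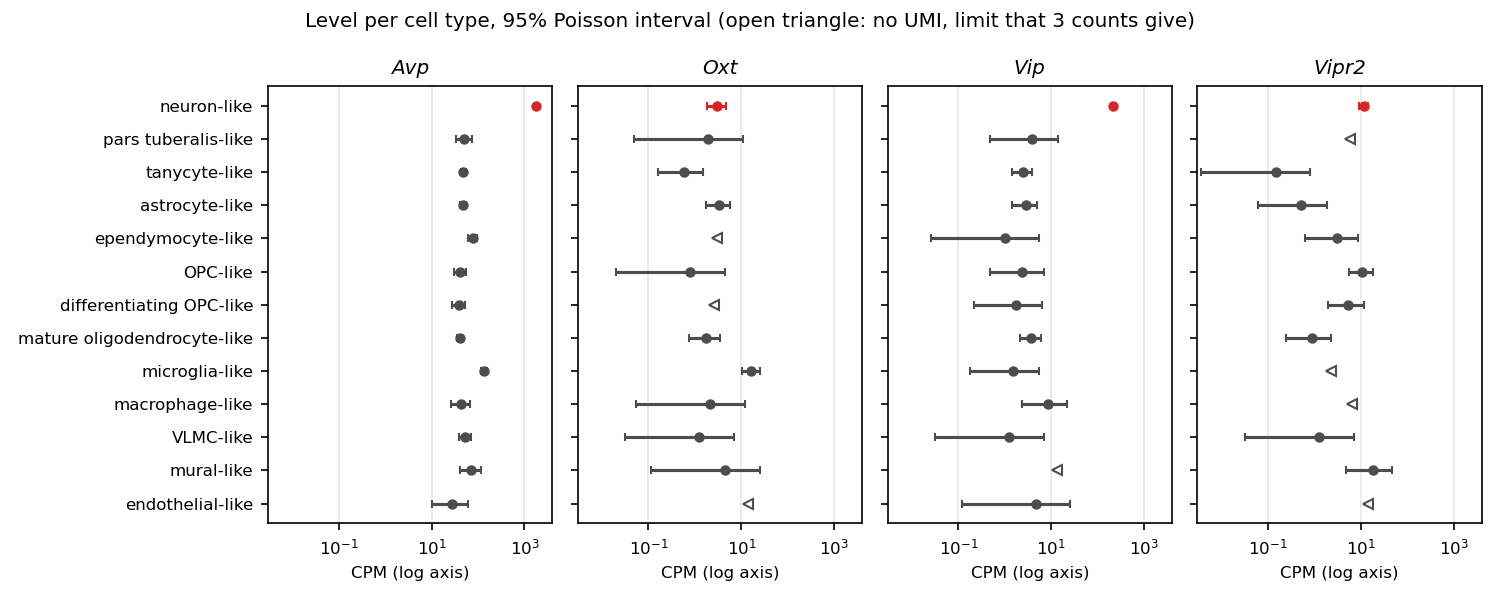
Level of Avp, Oxt, Vip and Vipr2 in CPM (log axis) in 13 named cell types. Points are the summed counts of a type, bars the exact 95% Poisson interval, and open triangles mark types with no UMI at the level that 3 counts would give. Neuron-like cells (red) stood highest for Avp (1790 CPM) and Vip (217 CPM), microglia-like cells for Oxt (16.4 CPM), and mural-like cells had the highest but widest value for Vipr2 (17.8 CPM).

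A neuron-like cell was called expressing when it held at least 3 UMIs of a gene and when its CPM was at least 10 times the level in non-neuronal cells of the same barcode number. By this rule 46 of 507 neurons (9.07%, interval 6.72 to 11.9) expressed Avp, 15 (2.96%, 1.67 to 4.83) expressed Vip, 6 (1.18%, 0.436 to 2.56) expressed Vipr2 and 2 (0.394%, 0.0478 to 1.42) expressed Oxt. Among the 5323 non-neuronal cells the rule was met by 13 for Avp (0.244%), by none for Vip, which allows up to 0.0564% at 3 cells, by 1 for Vipr2 (0.0188%) and by 4 for Oxt (0.0751%, 0.0205 to 0.192). For Oxt this interval overlapped that of the neurons.

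Avp was concentrated in few cells. Of the 507 neurons, 251 had no Avp UMI, 128 had 1, 44 had 2, 39 had 3 to 9, 15 had at least 10 but fewer than 50, 17 had at least 50 but fewer than 200 and 13 had 200 or more. A UMI was found in 50.5% of neurons and in 15.6% of non-neuronal cells, and after every cell was thinned to 1000 UMIs the shares were 14.6% and 4.25%. The 445 neurons that expressed none of the 4 genes held Avp at 56.5 CPM (50.7 to 62.8), close to the 52.1 CPM (49.1 to 55.2) of non-neuronal cells. Cells with high Avp were taken out of these 445 by the rule, so their low level is in part fixed by it. The 46 expressing cells held 97.0% of the neuronal Avp UMIs, with a lowest value of 7, a median of 72 and a highest of 3145. Just below the rule stood 7 further neurons with 2 or more UMIs and at least 5 times the non-neuronal level, and 4 of the 46 stood within a factor of 2 above it.

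The highest values belonged to 2 cells of barcode number 4, with 3145 and 2885 Avp UMIs out of 17595 and 23503 in all, so that 17.9% and 12.3% of each cell's RNA counts were Avp. They held 46.4% of all Avp UMIs of the matrix. The next cell had 491. Without these 2 cells the neuronal level fell to 882 CPM (859 to 905). By barcode number the neuronal level was 539, 1902, 762 and 3565 CPM for numbers 1 to 4, and for number 4 it was 692 CPM (657 to 729) without them. Leaving out number 4 gave 968 CPM for neurons (940 to 997). Avp-expressing neurons were found under each number, with 7, 14, 11 and 14 cells.

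**Figure D2:**
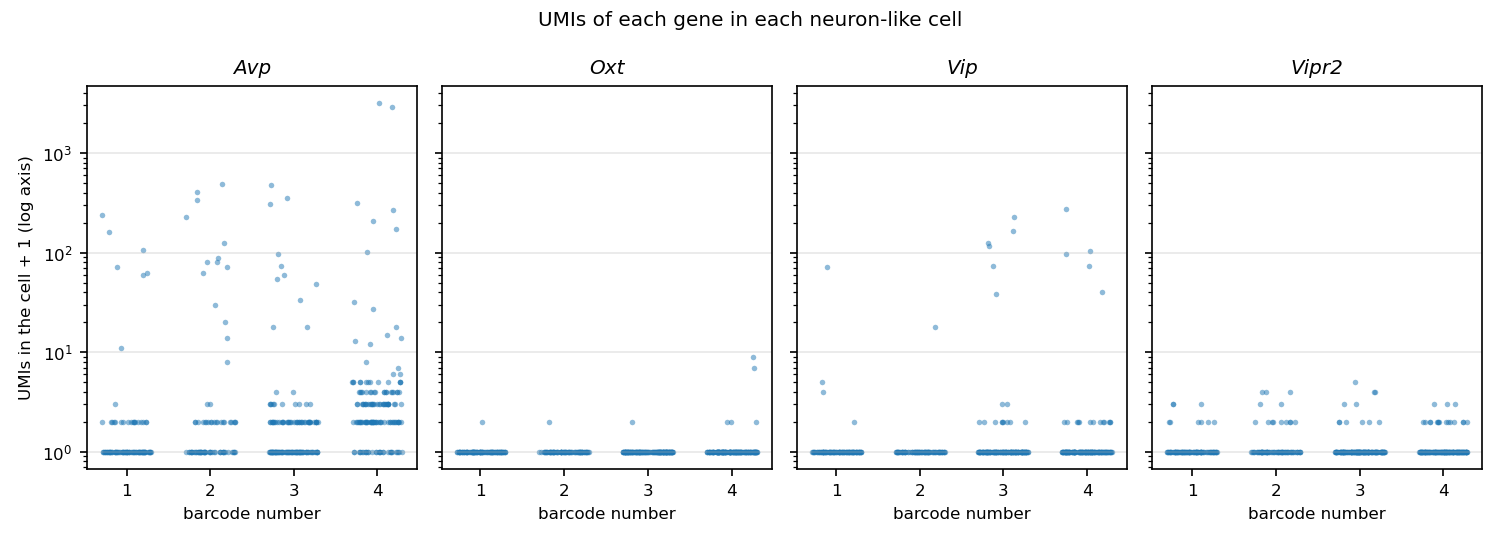
UMIs of each gene in each of the 507 neuron-like cells, plus 1 and on a log axis, by barcode number. Each point is a cell, shifted sideways at random within its number. The 2 cells with 3145 and 2885 Avp UMIs stand apart under number 4, Vip reaches 270 UMIs in a cell, Oxt 8 and Vipr2 4.

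The Avp-expressing neurons were split by whether they also expressed Oxt, and these sets differed in many other listed genes. In the 2 highest cells Oxt was also present, with 6 and 8 UMIs, which together gave 14 of the 20 neuronal Oxt UMIs. The other 44 cells held 5429 Avp UMIs and no Oxt UMI, which allows up to 0.553 Oxt per 1000 Avp UMIs at 3 counts, against 2.32 (1.27 to 3.90) in the pair. The cells were divided by their Oxt counts, so this difference in ratio is fixed by the division and is no finding. The pair also held all 6 neuronal UMIs of Sim1, a transcription factor of paraventricular and supraoptic neurons, and 12 UMIs of Pou3f2 (Brn2), which acts downstream of it in that lineage. Sim1 and Pou3f2 had no UMI in the 44 cells, which allows up to 10.2 CPM at 3 counts. In the 445 other neurons Sim1 was also at 0, and Pou3f2 was at 4.72 CPM, from 24 cells. Both levels lie below that limit, so the zeros do not set the 44 cells apart from the other neurons. Otp, a further factor of neuroendocrine lineages, was at 5 and 6 UMIs in the pair and at 0 in the 44, although 145 of the 445 other neurons had it too. Gad1, Gad2 and Slc17a6, which mark GABA and glutamate neurons, were at 0 in both cells, and 2 UMIs of the GABA transporter Slc32a1 were found in 1 of them. A zero here allows up to 73.0 CPM at 3 counts. In the 445 other neurons Slc17a6 was at 76.5 CPM, close to that limit, and Gad1 and Gad2 were at 276 and 392 CPM. Differences of at least 1 log2 unit (on log2(CPM + 10)) from the 445 neurons that expressed none of the 4 genes were counted over genes with 50 or more UMIs in both sets together, which leaves out Sim1 and Pou3f2. Of the 7 such genes in the paraventricular and supraoptic list, Arnt2 (3 UMIs in the pair) was higher, where 6.16% of all 9453 genes were, and Trh, Slc17a6 and Cartpt were lower, where 35.6% of all genes were. Of the 10 such genes in the SCN list none was higher and 8 were lower. All values of this kind rest on 2 cells of 1 barcode number, at a median depth of 20549 UMIs. Some genes counted as lower had no UMI in the pair and lay under 73.0 CPM in the 445, such as Trh (61.4 CPM) and Rgs16 (21.7 CPM). For these the depth of the pair cannot show a lower level.

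The 44 Avp cells without Oxt carried GABA and SCN genes. Each of the 44 had at least 1 UMI of Slc32a1, Gad1 or Gad2, whereas the glutamate transporter Slc17a6 was found in 1. A GABA gene was also found in 376 (84.5%) of the 445 neurons that expressed none of the 4 genes, and Slc17a6 in 122 (27.4%). GABA genes were thus common in the neurons and not particular to the Avp cells. Against the 445 neurons that expressed none of the 4 genes, 10 of the 11 SCN genes with 50 or more UMIs were at least 1 log2 unit higher, and the median difference over the whole list of 12 was 2.97. Among all 9575 genes with 50 or more UMIs, 3.09% were as much higher and the median was -0.14. The SCN list was drawn up with earlier results of these data known, so the count describes the cells and tests nothing. The nuclear receptor Rorb was at 954 CPM (846 to 1072) against 66.3 CPM (60.0 to 73.0), and was found in 42 of the 44 cells. The G-protein regulator Rgs16 was at 784 CPM (686 to 892) against 21.7 CPM (18.1 to 25.7). The secreted peptides prokineticin 2 (Prok2) and neuromedin S (Nms) were at 519 CPM (440 to 609) and 289 CPM (231 to 357), against 14.7 CPM and 2.28 CPM. The homeobox genes Six6 and Six3 were at 625 CPM and 411 CPM against 93.3 CPM and 110 CPM. Gastrin-releasing peptide (Grp) had no UMI in the 44 cells, which allows up to 10.2 CPM at 3 counts, and Gpr176 was at 27.2 CPM (11.7 to 53.5) against 8.95 CPM (6.75 to 11.7). None of the 7 genes of the paraventricular and supraoptic list with 50 or more UMIs was 1 log2 unit higher in the 44 cells and 5 were lower, where 9.38% of all genes were. Lower members were Otp, Trh, Slc17a6, Cartpt and Pdyn. The Avp cells were shallower than the other neurons, with medians of 6789 and 14223 UMIs, and the CPM scale divides by that depth.

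Vip was found in fewer cells. A UMI was present in 40 of 507 neurons (7.89%) and in 1.11% of non-neuronal cells, and after thinning in 3.35% of neurons and 0.188% of non-neuronal cells. The 15 expressing cells held 98.1% of neuronal Vip UMIs, with 3, 4, 17, 37 and 39 UMIs in the 5 lowest and 115, 123, 163, 224 and 270 in the 5 highest. No other neuron had more than 2, a limit that the rule fixes at these depths. They came as 3, 1, 6 and 5 cells from numbers 1 to 4, and the neuronal level was 58.3, 15.8, 357 and 283 CPM. Without number 3 the count of expressing cells was 9. All 15 carried Six3 and at least 2 UMIs of the GABA genes, and none had Slc17a6. In the 445 neurons that expressed none of the 4 genes, Six3 was found in 48.1%, at least 1 GABA gene UMI in 84.5% and Slc17a6 in 27.4%. The LIM homeobox gene Lhx1, which is needed for the coupling of SCN neurons, was found in 14 of them at 612 CPM (477 to 773), against 126 CPM (88.4 to 173) in the 44 Avp cells and 10.3 CPM (7.88 to 13.1) in the other neurons. Of the SCN genes with 50 or more UMIs, 9 of 11 were at least 1 log2 unit higher than in the other neurons, against 3.78% of all 9486 genes, and 6 of 7 in the paraventricular and supraoptic list were lower, against 13.9% of all genes.

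The 15 Vip cells differed among themselves in other SCN genes. In 6 cells with 3 or more Rgs16 UMIs (median 108.5 Vip UMIs) Nms was found in 3, Prok2 in 3 and C1ql3, a secreted synaptic protein, in 4, and Grp had no UMI. In the other 9 (median 70 Vip UMIs) Nms had no UMI and Grp was found in 5 at 766 CPM, while Lhx1 was present in all 9 at 825 CPM against 301 CPM in the 6. This split by Rgs16 was made after the values had been seen, so these values are a description and Rgs16 itself is fixed by it. The median depths were 7394 and 7967 UMIs.

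Few neurons expressed both Avp and Vip, and each gene was also expressed by few neurons. Of the 46 Avp-expressing neurons 1 also expressed Vip (2.17%, 0.055 to 11.5), where 2.96% of all neurons did, with 31 Avp and 102 Vip UMIs, and the same cell was the 1 of 15 Vip neurons (6.67%, 0.169 to 31.9) that expressed Avp, where 9.07% of all neurons did. Both intervals held the share over all neurons. The other 45 Avp cells held at most 2 Vip UMIs and the other 14 Vip cells at most 2 Avp UMIs. At these depths any neuron with 3 or more Vip UMIs met the rule for Vip, so the limit for Vip is fixed by the rule. The level of Avp in the 15 Vip cells was 315 CPM (221 to 436), of which that cell gave 31 of 36 UMIs. Across the 507 neurons Pearson's r between the 2 genes on log-scaled counts was 0.0048, a description over cells that share libraries and differ in depth. No neuron that expressed any of the 4 genes was called a doublet by Scrublet.

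**Figure D3:**
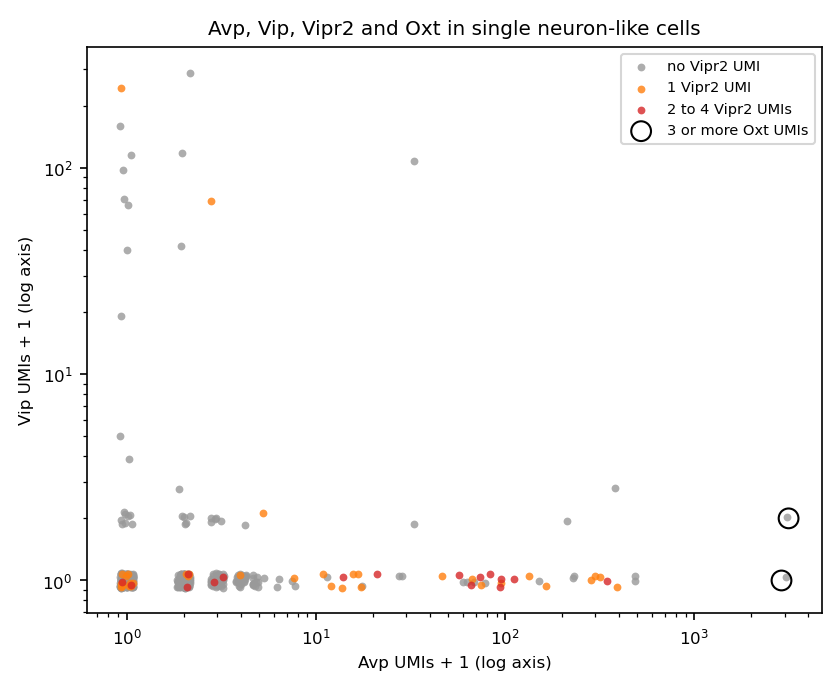
Avp and Vip UMIs (each plus 1, log axes, points shifted slightly) in each of the 507 neuron-like cells, coloured by Vipr2 UMIs, with rings around cells that have 3 or more Oxt UMIs. The 46 Avp-expressing and 15 Vip-expressing cells share 1 cell (31 Avp, 102 Vip), and the ringed cells have the highest Avp. Of the 52 cells with a Vipr2 UMI, 27 express Avp.

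Vipr2, the receptor for VIP and PACAP, was detected thinly, as 75 UMIs in 52 neurons (10.3%, 7.76 to 13.2), with 36 cells at 1 UMI, 10 at 2 and 6 at 3 or 4. The highest cell had 4. The 6 expressing cells came from numbers 2 and 3, with 3 each. A Vipr2 UMI was present in 27 of 46 Avp-expressing neurons (58.7%, 43.2 to 73.0) and in 25 of the other 461 (5.42%, 3.54 to 7.90), although the Avp cells were the shallower (median 6799 against 13944 UMIs). The level was 125 CPM against 5.27 CPM. In the 15 Vip cells 2 had a Vipr2 UMI (13.3%, 1.66 to 40.5), at 17.5 CPM (2.12 to 63.2), and none reached the rule, which allows up to 20% at 3 cells. The 2 Avp cells with Oxt had none. With cells thinned to 1000 UMIs, 7 of 42 neurons with 2 or more Avp UMIs and 8 of the other 465 had a Vipr2 UMI. Between Avp and Vipr2 Pearson's r was 0.46 over the 507 neurons.

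Of the 16 neurons with 2 or more Vipr2 UMIs, 10 expressed Avp, where 9.07% of all neurons did. When all cells were clustered, these 16 shared 1 cluster of 80 neurons, with Rgs16, Vip and Avp among its leading genes. Of those 80 neurons 53.75% had a Vipr2 UMI and 75% an Avp UMI, so all neurons are a wide background for the 10. The 58.7% of Avp-expressing neurons with a Vipr2 UMI stands beside this 53.75%. Whether Vipr2 followed Avp within that cluster was not tested. Of the same 16, 7 had 3 or more UMIs of cholecystokinin (Cck), and 14 expressed Avp or had this Cck count. Cck is in none of the gene lists, and it leads a neuron subcluster that Vipr2 also leads. The share of all neurons with 3 or more Cck UMIs was not counted, so the 7 and the 14 have no background beside them. At least 1 Cck UMI was found in 20.2% of the 445 neurons that expressed none of the 4 genes. Among the 44 Avp cells without Oxt, the 27 with a Vipr2 UMI held 7 to 405 Avp UMIs (median 71) and the 17 without held 11 to 491 (median 70), so that these ranges overlapped. On the CPM scale their Avp levels were 15854 and 22557 CPM, at median depths of 6797 and 6781 UMIs. Cck was at 3 or more UMIs in 6 of the 27 and in 3 of the 17. Vipr2 levels differed between non-neuronal types by more than their intervals. OPC-like cells (oligodendrocyte progenitors) had 10.3 CPM (5.49 to 17.6) and mural-like cells, which wrap small vessels, had 17.8 CPM (4.85 to 45.5, from 4 UMIs in 3 of 75 cells), both overlapping the neurons at 11.4 CPM (8.94 to 14.2). Differentiating OPC-like cells had 5.25 CPM (1.93 to 11.4), mature oligodendrocyte-like cells 0.867 CPM (0.236 to 2.22), astrocyte-like cells 0.510 CPM (0.0618 to 1.84) and tanycyte-like cells, the ependymal cells that line the floor of the ventricle, 0.145 CPM (0.0037 to 0.806). Microglia-like cells had none, which allows up to 2.24 CPM.

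When the 507 neurons were clustered alone, 44 of the 46 Avp-expressing, all 15 Vip-expressing and all 6 Vipr2-expressing cells fell into 2 of 13 subclusters, which held 5459 of the 11813 neuronal Avp UMIs. A subcluster of 55 cells led by Vip, Prok2, Rgs16, Nms and Lhx1 held 25 of the Avp-expressing and all 15 of the Vip-expressing cells. A subcluster of 36 cells led by Cck, Vipr2, Zic1, Sfrp2 and Tmem51 held 19 Avp-expressing cells and no Vip UMI, and 28 of its 36 cells had a Vipr2 UMI. Vipr2 was at 206 CPM there and at 49.7 CPM in the first. The 2 Avp cells with Oxt fell into a subcluster of 57 cells led by Pomc, Fezf1, Adcyap1, Avp and Slc17a6, of whose 6082 Avp UMIs they held 6030. With the 4 genes left out of the clustering, subclusters of 54 and 37 cells held 24 and 20 of the Avp-expressing cells, 15 and 0 of the Vip-expressing cells and 15 and 29 cells with a Vipr2 UMI. The genes whose counts followed Avp most closely over the neurons were Nnat, Rorb, Zic5, C1ql3, Nms, Rgs16, Fam122b and Rora (Pearson's r 0.55 to 0.48, among 11048 genes found in at least 5% of neurons). For Vip they were Synpr, Lhx1, Lhx1os, Tpbg, Thsd7b, Cadps2, Iqsec3 and Cd24a (0.55 to 0.35), and for Vipr2 Tmem51, Prokr2, Zic1, Prr5l, Zic5, Malat1, C1ql3 and Fam122b (0.70 to 0.49). For Oxt, with a UMI in 8 neurons, the first were Pou3f2, Cdh9 and Stxbp6 (0.36 to 0.28), followed by Angpt1, Avp, Hbb-bs, Kcnh1 and Glcci1.

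The 6 listed genes that process peptides all had UMIs in the 44 Avp cells, in the Vip cells and in the 2 cells with Oxt. The convertase Pcsk2 was at 564 CPM (481 to 656) in the 44 Avp cells, at 262 CPM (177 to 375) in the Vip cells and at 140 CPM (131 to 150) in the other neurons. The convertase Pcsk1 was at 10.2 CPM (2.10 to 29.8) in the 44 Avp cells and at 122 CPM (39.5 to 284) in the 2 cells with Oxt, where Pcsk2 was at 73.0 CPM (15.1 to 213). Carboxypeptidase E (Cpe) and the Pcsk2 chaperone Scg5 differed less, at 1192 and 978 CPM in the 44 cells and 677 and 703 CPM in the other neurons. The amidating enzyme Pam was at 452 CPM (378 to 535) in the 44 cells, against 149 CPM (86.6 to 238) in the Vip cells and 307 CPM (294 to 322) in the other neurons. Pcsk1n, the inhibitor of Pcsk1, was at 2774 CPM (2587 to 2971) in the 44 cells and at 4311 CPM (4259 to 4363) in the other neurons. On the threshold of 1 log2 unit, 1 of the 6 genes, Pcsk2, was higher in the 44 Avp cells and none was lower, where 3.09% and 9.38% of all genes were. In the Vip cells none was higher and Pam was lower, where 3.78% and 13.9% of all genes were, and in the 2 cells with Oxt Pcsk1 was higher and Pam lower, where 6.16% and 35.6% of all genes were.

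**Figure D4:**
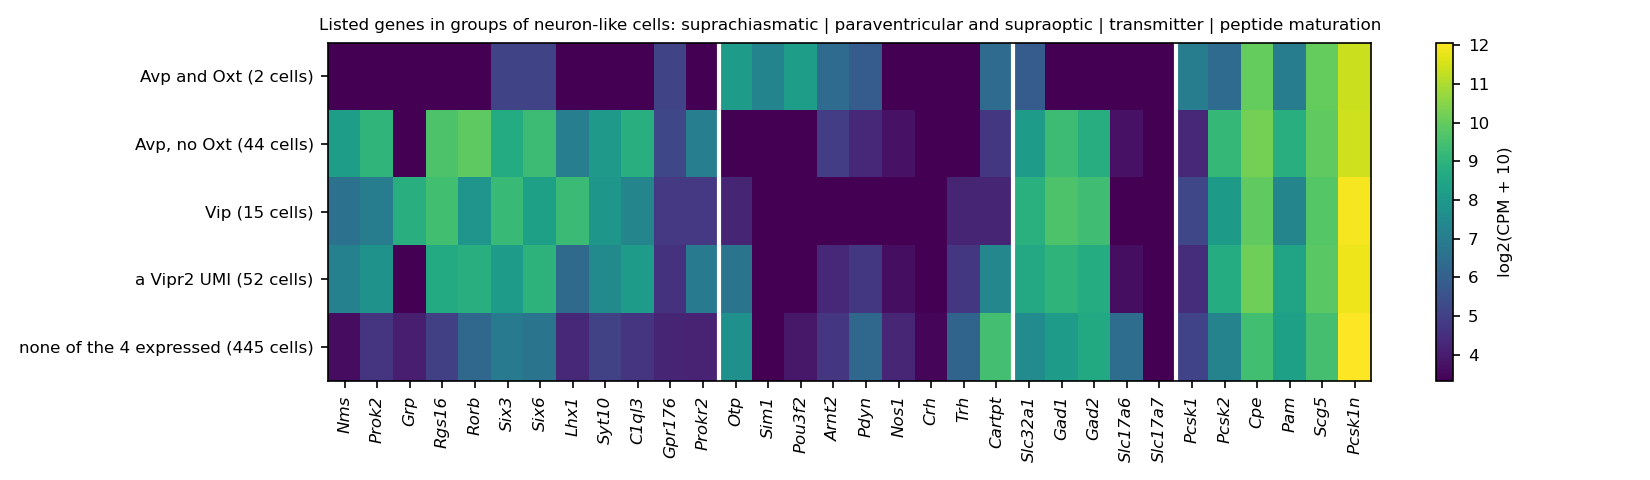
Level of the listed genes, as log2(CPM + 10) of summed counts, in 5 groups of neuron-like cells (2 with Avp and Oxt, 44 with Avp and no Oxt, 15 with Vip, 52 with a Vipr2 UMI, 445 with none of the 4 genes expressed). The groups overlap in part, and 21 of the 52 cells with a Vipr2 UMI are also among the 445. SCN genes such as Rorb (954 CPM in the 44 Avp cells) and Rgs16 are bright in the Avp and Vip cells and dark in the 2 cells with Oxt, which hold Sim1 (146 CPM) and Pou3f2 (292 CPM).

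The receptors of these peptides were low or absent. The vasopressin receptor Avpr1a was found in 34 neurons at 6.21 CPM (4.46 to 8.43). In the 44 Avp cells without Oxt it was at 23.8 CPM (9.56 to 48.97), from 7 UMIs in 5 cells. In the 445 neurons that expressed none of the 4 genes it was at 5.05 CPM (3.43 to 7.16), so that these intervals did not overlap. Avpr1b, Avpr2, Oxtr and Vipr1 had no UMI in the 44 cells. The renal and pituitary receptors Avpr2 and Avpr1b had 2 UMIs each in the whole matrix. The oxytocin receptor Oxtr had 59 UMIs, of which 36 lay in tanycyte-like cells at 5.20 CPM (3.65 to 7.21), against 2.73 CPM (1.62 to 4.31) in neurons, so that the intervals overlapped. The second VIP receptor, Vipr1, had 10 UMIs. The PACAP receptor Adcyap1r1, which binds VIP weakly, was by contrast at 282 CPM (266 to 300) in astrocyte-like and 212 CPM (188 to 239) in OPC-like cells, and at 80.3 CPM (73.6 to 87.5) in neurons. In the 44 Avp cells it was at 6.79 CPM (0.822 to 24.5). PACAP itself (Adcyap1) had 133 UMIs, of which 114 lay in 24 neurons.

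Avp RNA was found at a low level in every named type. Outside neurons and microglia-like cells the levels ran from 27.9 CPM (10.2 to 60.7) in endothelial-like to 76.1 CPM (59.9 to 95.2) in ependymocyte-like cells, and the intervals of most types overlapped. The level in non-neuronal cells differed between barcode numbers, at 20.5 CPM (17.1 to 24.3), 35.1 CPM (30.2 to 40.5), 30.5 CPM (25.8 to 35.8) and 124 CPM (115 to 134) for numbers 1 to 4, and its order was that of the neuronal level. That order rested on the 2 highest cells: without them number 4 had the third highest neuronal level (692 CPM), while its non-neuronal level was the highest. Without number 4 the non-neuronal level was 28.2 CPM (25.6 to 30.8). An Avp UMI was found in 6.67%, 7.41%, 11.4% and 38.5% of non-neuronal cells. The number with the highest non-neuronal level was also the one with the 2 highest Avp cells. For Vip the non-neuronal levels were 0.320, 0.190, 7.12 and 3.84 CPM, again in the order of the neurons of the same numbers, and each of the 59 non-neuronal cells with Vip had a single UMI. Without number 3 the non-neuronal level was 1.41 CPM (0.905 to 2.10). For Oxt the order was not shared, as number 4 had the highest neuronal level (8.14 CPM) and the lowest non-neuronal level (1.28 CPM), and without number 4 the neuronal level was 0.665 CPM (0.137 to 1.94). Without the 2 highest Avp cells the neuronal Oxt level of number 4 was 1.46 CPM (0.302 to 4.28). That interval overlapped the one of its non-neuronal cells (0.515 to 2.64). Vipr2 in non-neuronal cells lay between 1.10 and 2.08 CPM for all 4 numbers with overlapping intervals. As a share of the neuronal CPM of the same number, non-neuronal Avp was 1.846% to 4.003% and Vip 0.548% to 1.99%, and for peptide genes of other hypothalamic neurons it was 0.810% to 2.68% (Agrp), 0.908% to 2.55% (Sst), 1.48% to 4.41% (Npy) and 6.28% to 12.97% (Pomc). Without the 2 highest Avp cells the Avp share for number 4 was 17.9% in place of 3.48%. The part of RNA released from cells before capture in these values was not tested.

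**Figure D5:**
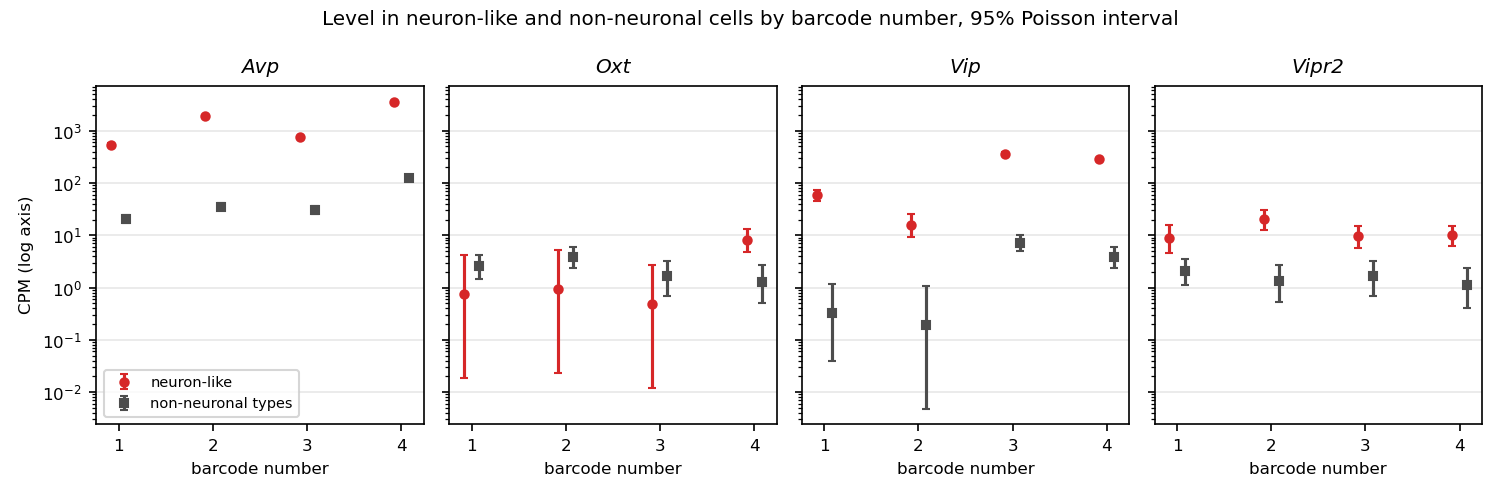
Level of each gene in CPM (log axis) in neuron-like cells (red circles) and in all non-neuronal types together (grey squares), by barcode number, with exact 95% Poisson intervals. For Avp and Vip the 4 grey values follow the order of the 4 red values, which for Avp does not hold without the 2 highest Avp cells. For Oxt only number 4 has neurons above the non-neuronal cells (8.14 against 1.28 CPM). Without the 2 highest Avp cells that neuronal value is 1.46 CPM, and the intervals overlap.

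Microglia-like cells stood above the other non-neuronal types for Avp and Oxt. Their Avp level was 133 CPM (114 to 154) and their Oxt level 16.4 CPM (10.3 to 24.9), the highest of any type and above that of neurons. This came mostly from 48 of the 402 cells, a cluster led by Ccl4, Junb, Ccl3, Cebpa and Ier2. Ccl3 and Ccl4 are chemokines of activated microglia, and Junb and Ier2 are immediate-early genes. There Avp was at 545 CPM (442 to 665) and Oxt at 89.96 CPM (51.4 to 146), against 69.8 CPM (55.4 to 86.7) and 5.17 CPM (1.90 to 11.3) in the other 354. Single cells carried much of it. A cell with 62 Avp and 5 Oxt UMIs, called a doublet by Scrublet, and a cell with 9 Oxt and 2 Avp UMIs were both from number 2. Without the highest cell for each gene the cluster held 35 Avp UMIs (197 CPM) and 7 Oxt UMIs (39.4 CPM). Of 4 other neuronal peptide genes, Agrp was at 45.0 CPM (19.4 to 88.6) there, against 39.6 CPM (29.0 to 52.9) in the other 354, and Sst, somatostatin, at 33.7 CPM (12.4 to 73.4) against 33.6 CPM (23.9 to 45.9). Npy was at 118 CPM (73.1 to 180) against 71.5 CPM (57.0 to 88.7) and Pomc at 22.5 CPM (6.13 to 57.6) against 15.5 CPM (9.19 to 24.5), and for all 4 the intervals overlapped. Vip had no UMI in the 48 cells. Avp UMIs per Npy UMI were 1.71 in microglia-like cells and ran from 0.225 in ependymocyte-like to 0.842 in mural-like cells over the other non-neuronal types. Per Agrp and per Sst UMI mural-like cells, with 75 cells, had 4.0 Avp UMIs each, above the 3.296 and 3.96 of microglia-like cells.

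Oxt outside neurons was likewise held by few cells. Of the 51 non-neuronal Oxt UMIs 22 were in microglia-like and 13 in astrocyte-like cells, and 27 cells had 1 UMI, 1 had 2 and 4 had 3 or more, with 5 UMIs in 1 astrocyte-like and 3 in 1 mature oligodendrocyte-like cell. Per 1000 Avp UMIs, non-neuronal cells held 44.7 Oxt UMIs (33.3 to 58.8), against 2.32 (1.27 to 3.90) in the 2 neurons with both genes. The first value pools all 4 barcode numbers, whereas both neurons came from number 4, so the sets are unlike. Non-neuronal cells of number 4 held 7 Oxt and 678 Avp UMIs. For numbers 1 to 3 these counts were 16 and 128, 20 and 185, and 8 and 150. Ependymocyte-like, differentiating OPC-like and endothelial-like cells had no Oxt UMI, which allows up to 3.003, 2.63 and 13.95 CPM at 3 counts.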

How the data were processed

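Cells were dissociated, sorted and processed with the 10X Single Cell 3′ v2 kit. Per the labels and the methods, the authors mapped reads to mm10 and made UMI counts with Cell Ranger 2.0. The annotation release and the cell calling are not given in the sources used here. The deposited values are raw UMI counts, 27998 genes by 5982 cells, and 27645 gene identifiers matched a symbol. In Python 3.11.15 with scanpy 1.11.5, counts were log-normalised, 2000 variable genes gave 30 principal components, and Leiden clusters at resolution 1 were named from marker lists, by thresholds chosen with the clusters in view. A cluster led by Gfap only narrowly passed as tanycyte-like. The 3 cells with over 10% haemoglobin UMIs were left unclustered, no other cell was set aside, and Scrublet calls served as an alternative. Levels are summed counts per 1000000 UMIs with exact intervals. The genes named are the 4 members, listed genes, the 8 genes most correlated with each member and the 5 leading genes of a subcluster. Members and lists were chosen with earlier results of these data known. The correlation ranking, intervals and thinning were tested on simulated data. Leaving out barcode numbers, other clusterings and other cut-offs were tried.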

Additional observations from a re-analysis of the deposited data

How the results depend on the processing

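No paired analysis was possible because no barcode number is tied to a library, so no groups were compared. Under other settings 162 recomputed values stayed within the interval of the reported value (counts of cells: within 1.5 times) and 50 did not. The cause was not tested except where named. Leaving out each barcode number in turn gave neuronal levels of 968 to 2268 CPM for Avp, 0.665 to 4.22 CPM for Oxt, 153 to 258 CPM for Vip and 9.60 to 12.2 CPM for Vipr2, and non-neuronal levels of 28.2 to 64.7 CPM for Avp and 1.41 to 3.64 CPM for Vip. It gave 32 to 39 expressing neurons for Avp, 0 to 2 for Oxt, 9 to 14 for Vip and 3 to 6 for Vipr2, and 0 to 1 neurons with both Avp and Vip, 1 to 4 with Avp and Vipr2 and 0 to 2 with Avp and Oxt. The lowest values for Avp and Oxt were those without number 4.

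At Leiden resolution 2 (564 neuron-like cells) neuronal Avp was 1728 CPM. K-means with 9 clusters named no neuron-like cluster, so no neuronal value could be had. Its non-neuronal levels were 47.8 CPM for Avp, 1.48 CPM for Oxt and 0.626 CPM for Vipr2. With cells thinned to 1000 UMIs, which gives each cell the same weight, neuronal levels were 2191 CPM for Avp, 420.1 CPM for Vip and 33.5 CPM for Vipr2, and non-neuronal levels 49.03 CPM for Avp, 1.503 CPM for Oxt and 1.88 CPM for Vip. At that depth 0 neurons expressed Oxt, 0 expressed Vipr2, and 0 expressed Avp with Vip, 0 Avp with Vipr2 and 0 Avp with Oxt. A minimum of 2 UMIs gave 16 neurons for Vipr2, 2 for Avp with Vip and 11 for Avp with Vipr2. A minimum of 10 UMIs gave 0 neurons for Oxt, 0 for Vipr2, 0 for Avp with Vipr2 and 0 for Avp with Oxt. Of settings chosen after seeing the data, leaving out the 2 highest Avp cells gave 882 CPM for neuronal Avp, 0.915 CPM for neuronal Oxt, 0 neurons expressing Oxt and 0 with Avp and Oxt. Leaving out the Ccl3-led microglia-like cluster gave non-neuronal levels of 48.0 CPM for Avp and 1.61 CPM for Oxt. Leiden resolution 0.5, leaving the 4 genes out of the clustering, leaving out doublets, filtering cells, and multiples of 5 or 20 times the non-neuronal level moved none of the values they apply to.

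Depth limits Vipr2 and Oxt most: expressing neurons held 3 to 4 UMIs of Vipr2 and 6 to 8 of Oxt.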
